A study of Mus musculus with 8 samples.

Results

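The proteasome genes of mouse liver are described here in tumors and normal liver of wild-type mice and of mice labelled as knockouts for Nfib. The members were the genes whose annotation in the deposited count table holds the KEGG proteasome pathway, 45 of 21878 genes in the table. Of these, 5 were the interferon-inducible immunoproteasome genes Psmb8, Psmb9, Psmb10, Psme1 and Psme2. A further 39 were constitutive or other proteasome genes, and the last was Ifng, the cytokine interferon gamma, which the pathway also lists.

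All mice were C57BL/6, and the age given for every library was 14 to 16 days, tumors included. The series' design text gives the mutant as Nfibf/f Alb-Cre, a floxed allele recombined by Cre under the albumin promoter, which is active in hepatocytes and leaves the gene intact in the other cells of the liver. It gives the controls as wild-type mice, and whether they carried the floxed allele or Cre is not given in the sources used here. The wild-type libraries came from 3 tumors (numbered 1, 2 and 3) and 2 normal livers (2 and 3). The libraries labelled nfib-/- came from 2 tumors (2 and 3) and from normal liver in 1 case (3). Nothing states which numbers share an animal, so p-values measure only the spread between these libraries.

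The proteasome degrades proteins tagged with ubiquitin. Its barrel-shaped core, the 20S particle, has outer alpha rings that gate entry and inner beta rings that carry the proteolytic sites. The 19S particle caps the barrel: its base binds ubiquitin chains and unfolds substrates with a ring of ATPases, and its lid trims the chains. Under interferon, the catalytic subunits Psmb5, Psmb6 and Psmb7 are replaced in newly made particles by Psmb8, Psmb9 and Psmb10, and the Psme1 and Psme2 cap opens the gate. The resulting immunoproteasome favours peptides that fit MHC class I molecules. Hepatocytes make mostly the constitutive form, and leukocytes are rich in the inducible one.

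Total counts ran from 11912549 to 19965842 per library. The 6 hepatocyte markers, such as Alb, summed to between 73770 and 162560 CPM (counts scaled to a common library size). Wild-type tumor 2 stood apart: its Cyp2e1, a pericentral cytochrome, was at 61.8 CPM against 2367 to 6835 CPM elsewhere, Tat, a tyrosine-degrading enzyme, was at 420.1 CPM against 1540 to 4330 CPM, and its correlation with other libraries across genes was 0.855 to 0.918. Nfib gave 64.8, 46.0 and 77.9 CPM in wild-type tumors 1, 2 and 3, and 87.5 and 79.4 CPM in wild-type normal livers 2 and 3. It gave 84.1 and 82.0 CPM in the labelled-knockout tumors 2 and 3, and 85.4 CPM in the labelled-knockout normal liver 3. The transcript was thus not lower under the knockout label, and these gene-level counts cannot show whether an exon was missing. All genotype names below are those of the labels. Except where stated, levels are CPM of library sizes scaled by the trimmed mean of M-values (TMM), and sums over cell-type markers are CPM of the library total. Differences are log2 fold changes from edgeR's quasi-likelihood test with its standard error (SE), adjusted by Benjamini-Hochberg over 14726 tested genes.

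Proteasome transcripts differed widely in level from gene to gene. On the FPKM scale, which divides by gene length and so allows genes to be compared, Psmb6 led with a mean of 133 ± 9.93 FPKM (SD, n = 8). Psmb4, a structural beta subunit, followed at 130 ± 12.6 FPKM, and Pomp, the chaperone that completes core assembly, at 130 ± 13.9 FPKM. These 3 levels did not differ beyond their spread. Core genes filled the first 7 ranks together with Pomp, and the first 19S gene was Psmd4, a ubiquitin receptor of the base, at 80.2 ± 11.03 FPKM and rank 12. Among inducible genes, Psme1 stood at 105 ± 12.2 FPKM and Psme2 at 59.3 ± 4.997 FPKM. Psmb8, Psmb10 and Psmb9 were far lower, at 39.0 ± 5.47, 23.4 ± 4.30 and 21.2 ± 4.52 FPKM. Psmf1, an inhibitor of the core, was the lowest of the broadly expressed members at 8.20 ± 1.12 FPKM.

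The tissue-restricted members were at or near the limit. Psmb11, the thymic beta subunit, had 0 counts in every library and was not tested. Psma8, the alpha subunit of male germ cells, had 5 to 20 counts per library. Ifng had 3, 1 and 3 counts in the wild-type tumors, 7 and 2 in the wild-type normal livers, 4 and 0 in the labelled-knockout tumors and 6 in the labelled-knockout normal liver. No difference in it was detectable at this depth. Of the 45 members 44 passed the filter on low counts, among them all 5 immunoproteasome genes, 38 constitutive or other genes and Ifng. The deposited table also held Shfm1, a small lid subunit, without the pathway identifier, so it is not counted.

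No member passed the test in any comparison. At an adjusted p under 0.05, edgeR called 0 of 14726 genes (0.0%) in each of the 7 comparisons made. An unadjusted p under 0.05 was reached by 430 genes (2.92%) for labelled-knockout against wild-type tumors, among them Psmc4, and by 1009 genes (6.85%) for labelled knockout against wild type over both tissues, among them Psmc4, Psmb8 and Psmb10. In the other comparisons no member reached it. They gave 341 genes (2.32%) for wild-type tumor against normal liver, 30 (0.204%) for the same within the labelled knockout, and 207 (1.41%) for labelled-knockout against wild-type normal liver. The difference between the tumor effects gave 47 (0.319%), and tumor against normal liver over both genotypes gave 259 (1.76%). DESeq2 called 4, 13, 0, 1, 0, 45 and 5 genes in the comparisons of labelled-knockout with wild-type tumors, wild-type tumor with normal liver, labelled-knockout tumor with normal liver, the normal livers, the difference, labelled knockout with wild type, and tumor with normal liver, and 1 of the 45 was Psmc4. The authors' deposited tables of library against library, 4 in number and listing 317, 785, 1001 and 270 genes past their thresholds, held 0 proteasome members. What follows therefore describes directions and sizes, most of which lay within the spread between libraries.

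**Figure D1:**
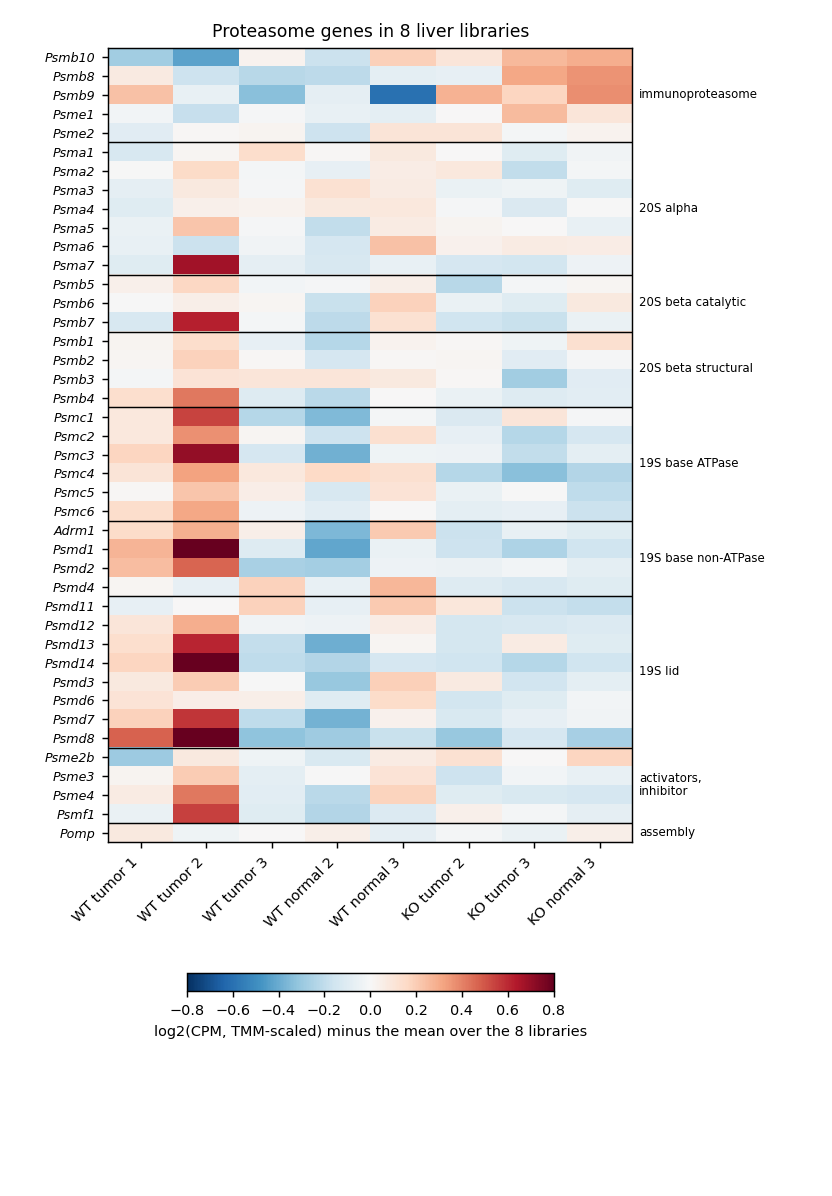
Rows are 42 proteasome genes grouped by role, columns are the 8 libraries (WT, wild type; KO, labelled knockout), and colour is log2 of TMM-scaled CPM minus the gene's mean over the libraries, with colours saturating at ±0.8. The darkest column is wild-type tumor 2, where 27 of 38 constitutive members peaked (14 with library totals), and the immunoproteasome rows are warm at the right, in the labelled-knockout libraries. Psma8, Psmb11 and Ifng, with few or no counts, are not drawn.

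The immunoproteasome genes were higher under the knockout label, although none passed the adjusted threshold. For the comparison over both tissues all 5 had a fitted log2 fold change above 0, as did 47.2% of all tested genes, and their median was 0.33 against -0.02 over all genes. Psmb8, which replaces Psmb5 and gives the chymotrypsin-like site, is encoded at 34197721 to 34201454 on chromosome 17 (GRCm38), 495 bases from Tap1 and 2072 bases from Tap2, the genes of the peptide transporter. Psmb9 overlaps the start of Tap1 by 212 bases on the opposite strand. The library kit keeps strand, but the counting setting is not given in the sources used here, so reads in that overlap cannot be told apart. To show the sequence around the annotated starts of the inducible subunit and the one it replaces, the RefSeq promoter windows (GRCm38.p6, 250 bases before to 50 after the start) of Psmb8 and Psmb5 follow, at chr17:34197945-34198244 on the plus strand and chr14:54617946-54618245 on the minus strand. The RefSeq start of Psmb8 lies downstream of the gene start given above, so its window falls inside that gene model. Capitals mark a match to TTCNNNGAA, the gamma-activated sequence of interferon-responsive promoters, in Psmb8, and a match to TGACNNNGC, the core of the antioxidant response element, in Psmb5.
Psmb8: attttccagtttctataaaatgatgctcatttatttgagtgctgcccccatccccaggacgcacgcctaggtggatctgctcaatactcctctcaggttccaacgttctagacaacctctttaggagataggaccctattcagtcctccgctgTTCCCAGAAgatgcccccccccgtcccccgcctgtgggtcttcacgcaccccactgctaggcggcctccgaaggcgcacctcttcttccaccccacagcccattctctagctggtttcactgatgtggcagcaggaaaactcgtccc
Psmb5: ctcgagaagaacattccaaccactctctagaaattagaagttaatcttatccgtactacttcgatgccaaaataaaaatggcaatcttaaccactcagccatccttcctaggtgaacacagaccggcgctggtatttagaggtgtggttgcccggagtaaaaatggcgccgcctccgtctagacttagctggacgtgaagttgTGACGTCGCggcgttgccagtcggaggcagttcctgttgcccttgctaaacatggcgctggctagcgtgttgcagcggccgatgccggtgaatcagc

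Both strands of 38 members with a promoter in the table were searched, beside 27025 genes in all. TTCNNNGAA was held by 3 members (Ifng, Psmb8 and Psmd2), or 7.89%, against 9.55% of all genes. TGACNNNGC was held by 6 members, or 15.8%, against 14.0%, and among the catalytic subunits by Psmb5 and Psmb6. The core of the interferon-stimulated response element, a GAAA repeat with 2 bases between its copies, was held by Psmb3, Psmd4 and Psme1, or 7.89%, against 3.99%. These shares describe letters in a window and not binding. Of the members, Psma8, Psmd3, Psmb2, Psmd7, Psmb7, Psmb1 and Psmc3 were not in the table.

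Psmb8 measured 49.7, 42.2 and 40.4 CPM in wild-type tumors 1, 2 and 3, and 40.9 and 44.7 CPM in wild-type normal livers 2 and 3. It measured 45.1 and 58.5 CPM in labelled-knockout tumors 2 and 3, and 60.6 CPM in the labelled-knockout normal liver. Labelled-knockout tumor 2 fell below wild-type tumor 1, so the groups overlapped. The log2 fold change over both tissues was 0.33 ± 0.14 (SE), with an unadjusted p of 0.049 and an adjusted p of 0.71 in edgeR, and in tumors alone it was 0.23 ± 0.19 (SE). Psmb9, which replaces Psmb6, had 25.9, 21.1 and 17.4 CPM in the wild-type tumors, and 20.9 and 14.5 CPM in the wild-type normal livers. In the labelled-knockout libraries it had 26.6, 24.7 and 28.5 CPM, which overlapped with wild-type tumor 1 alone. Its log2 fold change was 0.41 ± 0.19 (SE) over both tissues and 0.26 ± 0.24 (SE) in tumors, with adjusted p of 0.71 and 0.89 in edgeR.

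Psmb10, which replaces Psmb7, is encoded on chromosome 8 (GRCm38), away from the MHC genes. It gave 33.7, 30.3 and 41.6 CPM in the wild-type tumors and 43.6 and 48.9 CPM in the labelled-knockout tumors, with no overlap. The normal livers gave 36.2 and 46.6 CPM in wild type and 49.9 CPM under the knockout label, so that over both tissues wild-type normal liver 3 reached into the labelled-knockout range. The log2 fold change was 0.40 ± 0.20 (SE) in tumors, and 0.35 ± 0.15 (SE) over both tissues with an unadjusted p of 0.049 and an adjusted p of 0.71 in edgeR. Between wild-type tumor and normal liver Psmb10 went the other way, at -0.24 ± 0.20 (SE), with tumors 1 and 2 below both normal livers and tumor 3 between them. Without wild-type tumors 1 and 2 that last value was 0.028.

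The cap genes Psme1 and Psme2 encode the alpha and beta subunits of the PA28 activator and lie 5911 bases apart on chromosome 14. Psme1 ran at 100.3, 89.6 and 101.2 CPM in wild-type tumors, at 97.7 and 96.6 CPM in wild-type normal liver, and at 102.3, 121.6 and 108.8 CPM in the labelled-knockout tumors 2 and 3 and normal liver. It was the only inducible member whose labelled-knockout libraries all lay above all wild-type ones, a pattern seen in 3.46% of tested genes. With library totals in place of TMM factors this separation was lost, with 115.7 CPM in wild-type normal liver 2 and 106.7 CPM in wild-type tumor 3 against 104.5 CPM in the labelled-knockout normal liver. Psmb10 then became the gene that separated, where 2.76% of tested genes did. Its nearest libraries were almost equal, at 45.65 CPM in labelled-knockout tumor 2 and 45.61 CPM in wild-type normal liver 3. On FPKM the Psme1 value of wild-type normal liver 2, at 118.4, also exceeded that of the labelled-knockout normal liver, at 107.0. The log2 fold change of Psme1 was 0.19 ± 0.12 (SE) with an adjusted p of 0.74 in edgeR. In tumors alone the non-overlapping members were Psmb10 and Psme1, against 9.75% of all tested genes, and Psmb8 joined them with library totals. Psme2 was close in all libraries, at 51.4 to 62.1 CPM over the 5 wild-type libraries and 57.2 to 62.0 CPM over the 3 others, with a log2 fold change of 0.06 ± 0.11 (SE). Its sign turned to -0.0082 without labelled-knockout tumor 2 and normal liver 3. Psme2b, annotated as a retrogene copy of Psme2, may share reads with it, and both values are uncertain for that reason. In normal liver alone 4 of the 5 genes lay above both wild-type libraries in the 1 labelled-knockout library, where 33.3% of tested genes did. With library totals Psme1 dropped out and 3 remained, where 19.4% of tested genes did, and the median of the 5 fitted values fell from 0.27 to 0.11, or to 0.17 without wild-type normal liver 2.

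**Figure D2:**
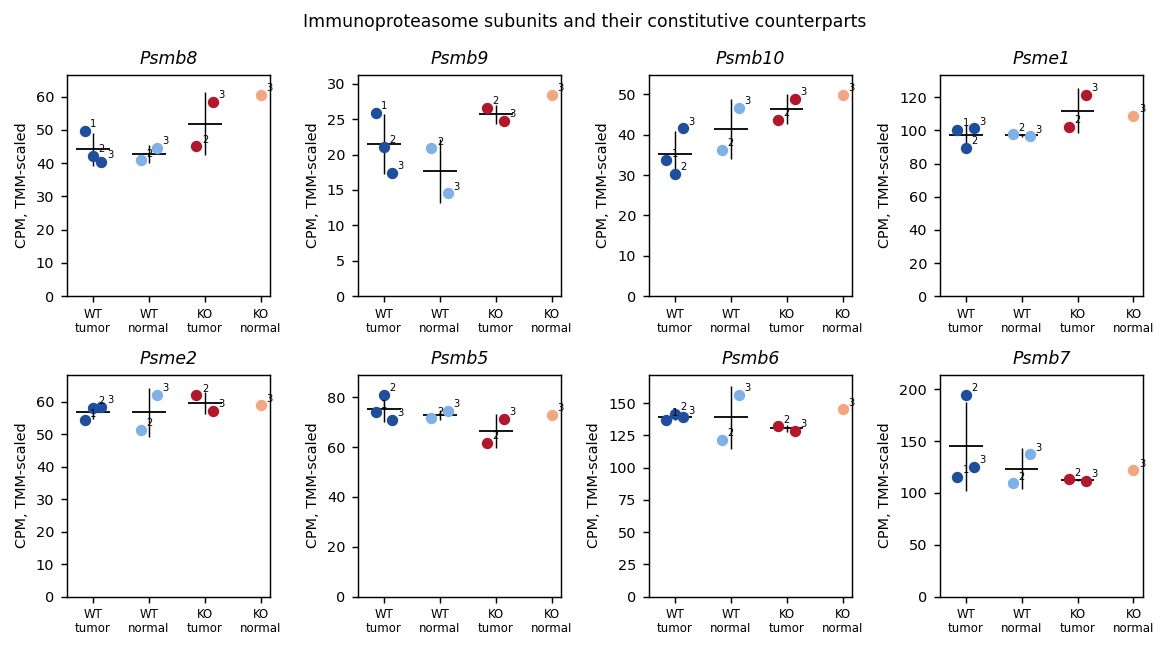
Each point is 1 library (number beside it) and the vertical axis is TMM-scaled CPM, for the 5 inducible genes and the 3 constitutive catalytic subunits. Horizontal lines are group means and vertical lines SDs where a group has more than 1 library (WT, wild type; KO, labelled knockout). Psmb8, Psmb9 and Psmb10 sit higher under the knockout label, while Psmb7 is high in wild-type tumor 2 alone, at 195 CPM.

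The constitutive partners did not share that direction. Psmb5 gave 74.2, 80.9 and 70.9 CPM in wild-type tumors, 71.6 and 74.4 CPM in wild-type normal liver, and 61.7, 71.4 and 72.9 CPM in the labelled-knockout libraries. Its log2 fold change over both tissues was -0.12 ± 0.12 (SE). With library totals the labelled-knockout libraries of Psmb5, at 64.6, 68.2 and 69.96 CPM, all lay below the wild-type ones, at 70.27 to 84.8 CPM. Psmb6 was at -0.04 ± 0.14 (SE), with the sign depending on wild-type normal liver 3, and Psmb7 at -0.24 ± 0.21 (SE), with adjusted p from 0.80 to 0.96 for both in edgeR.

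Each inducible subunit was therefore set against its own partner, within a library, as a ratio of FPKM values. Psmb8 over Psmb5 was 0.477, 0.372 and 0.406 in wild-type tumors and 0.407 and 0.428 in wild-type normal livers, against 0.521, 0.583 and 0.592 in the labelled-knockout tumors 2 and 3 and normal liver. Psmb9 over Psmb6 was 0.185, 0.145, 0.123, 0.168 and 0.0907 in the wild-type libraries in the same order, against 0.197, 0.188 and 0.192. Psmb10 over Psmb7 was 0.174, 0.0929, 0.199, 0.198 and 0.203, against 0.230, 0.262 and 0.245. In all 3 ratios the lowest labelled-knockout value exceeded the highest wild-type value. The ratios were taken after the directions of both gene sets had been seen. How often other gene pairs separate these libraries in this way was not tested. For Psmb9 over Psmb6 the gap was small, from 0.185 to 0.188. The low Psmb10 to Psmb7 ratio of wild-type tumor 2 came with both its high Psmb7 and its low Psmb10. These were the highest Psmb7 value of all libraries, 165.8 FPKM, and the lowest Psmb10 value, 15.4 FPKM.

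Summed over the 6 catalytic genes, the inducible ones took 20.5%, 14.7% and 17.9% of FPKM in wild-type tumors, 19.6% and 17.3% in wild-type normal livers, and 22.1%, 24.1% and 23.6% in the labelled-knockout libraries. The means were 18.0 ± 2.22% (SD, n = 5) and 23.2 ± 1.03% (SD, n = 3), a difference of 5.25 percentage points that no test was applied to. It ranged from 4.43 to 5.86 points when any 1 library was left out. It was 6.08 points from counts in place of FPKM. This share was not among the results planned beforehand.

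**Figure D3:**
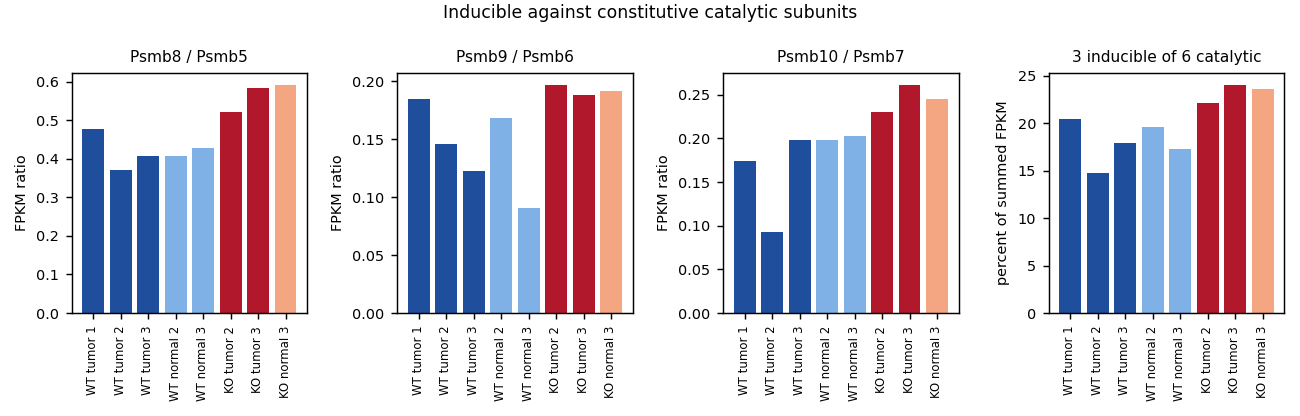
Bars are single libraries, dark blue wild-type tumor, light blue wild-type normal liver, dark red labelled-knockout (KO) tumor and light red labelled-knockout normal liver. The first 3 panels give the FPKM ratio of an inducible catalytic subunit to its constitutive partner, and the last the percent of the summed FPKM of 6 catalytic genes held by the 3 inducible ones. The 3 red bars exceed all 5 blue bars in each panel.

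Bulk RNA cannot tell a change in the number of cells of a type from a change of RNA per cell, and leukocyte transcripts also moved between these libraries. The 6 neutrophil markers, all detected in every library, summed to 25.7 to 33.8 CPM in wild type, to 248 CPM in labelled-knockout tumor 3 and to 225 CPM in the labelled-knockout normal liver, but to 18.3 CPM in labelled-knockout tumor 2. In that last library, with the lowest neutrophil sum of the 8, the ratios were 0.521 for Psmb8 over Psmb5, 0.197 for Psmb9 over Psmb6 and 0.230 for Psmb10 over Psmb7, and the highest wild-type ratios were 0.477, 0.185 and 0.203. The 7 pan-leukocyte and lymphocyte markers summed to 73.5 to 135 CPM in wild type and 97.4 to 121 CPM under the knockout label. The 6 macrophage markers summed to 55.6 to 555 CPM and 169 to 473 CPM in the same order, with wild-type tumor 2 lowest. Skeletal muscle transcripts, 6 markers, summed to 1460 CPM in labelled-knockout tumor 2 and 468 CPM in the labelled-knockout normal liver, against 1.38 to 66.0 CPM in wild type and 2.21 CPM in labelled-knockout tumor 3. Squamous markers, 5 in number, summed to 471 CPM in labelled-knockout tumor 2 and to at most 3.18 CPM elsewhere. Some muscle and squamous markers were at 0 in single libraries, for example Ckm and Myh4 in wild-type tumor 2, Tnnt3 in wild-type normal liver 2, and Krt15 in all libraries but labelled-knockout tumor 2 and normal liver 3. Without those 2 muscle-rich libraries the catalytic share differed by 6.07 points. The part of leukocytes in the immunoproteasome values was not tested.

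Genes that interferon also induces gave a mixed picture. Over both tissues 47.2% of all tested genes had a log2 fold change above 0. Of 20 interferon-response genes 14 did, with a median of 0.53. An unadjusted p under 0.05 in edgeR with a higher level was reached by 7 of them, and by 3.91% of all tested genes. Of 11 MHC class I presentation genes, 7 were above 0, with a median of 0.12. Of the transporter genes beside Psmb8 and Psmb9, Tap1 was at -0.01 ± 0.15 (SE) and Tap2 at 0.12 ± 0.14 (SE). In normal liver alone all 11 presentation genes were above 0, against 46.4% of all tested genes. Of these, 10 lay above both wild-type libraries, Tap1 and Tap2 among them, where 33.3% of tested genes did. With library totals Tap1, B2m, H2-K1, Nlrc5, Calr and Pdia3 no longer did, and Tap2, Tapbp, H2-D1 and Erap1 still did. Tap1, for example, was then at 30.5 CPM against 37.4 and 25.6 CPM in wild-type normal livers 2 and 3. The share of all tested genes for that scaling is given above, with the immunoproteasome genes in normal liver. Of the response genes, those with the smallest unadjusted p were Gbp2 at 0.91 ± 0.19 and Gbp3 at 1.71 ± 0.37 (SE), both interferon-induced GTPases, with an adjusted p of 0.71 in edgeR. Gbp3 gave 14.9, 7.12 and 17.2 CPM in wild-type tumors, 9.003 and 15.2 CPM in wild-type normal livers, and 23.3, 52.0 and 49.3 CPM in the labelled-knockout tumors 2 and 3 and normal liver. Among regulators, Irf7 was at 1.18 ± 0.42 (SE), with 137.8 and 141.7 CPM in labelled-knockout tumor 3 and normal liver, but 41.2 CPM in labelled-knockout tumor 2, within the 26.2 to 59.4 CPM of wild type. Irf1 was at -0.26 ± 0.20 (SE) and Nlrc5, the class I transactivator, at 0.10 ± 0.31 (SE), none past the threshold in edgeR.

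The constitutive genes leaned the other way in the tumors. Of 38 tested, 35 had a log2 fold change below 0 in labelled-knockout against wild-type tumors, as did 50.4% of all tested genes, and their median was -0.18 against -0.00 over all genes. Over both tissues 34 of 38 were below 0, against 52.8% of all genes, with a median of -0.14 against -0.02. In normal liver alone 22 of 38 were below 0, against 53.0% of all genes, with a median of -0.01 (-0.17 with library totals, where all genes had -0.20). Without wild-type normal liver 2 it was 31 of 38 with a median of -0.11, and without wild-type normal liver 3 it was 11 of 38 with a median of 0.091. The difference between the tumor effects, which tests tumor and normal liver against each other, was below 0 in 30 of 38, against 48.8% of all genes, with a median of -0.14 and no gene past the threshold in edgeR. With library totals in place of TMM factors that median was 0.07 and that of all genes 0.23. Without wild-type tumors 1 and 2, which had the highest levels of many of these genes, 28 of 38 were below 0 in tumors with a median of -0.060, and 23 of 38 over both tissues with a median of -0.03.

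All 18 tested genes of the 19S cap were below 0 in labelled-knockout against wild-type tumors, with a median of -0.26, while 13 of the 15 constitutive 20S genes were, with a median of -0.09. Without wild-type tumors 1 and 2 these became 13 of 18 at -0.08 and 12 of 15 at -0.07. The difference between the particles was not tested. Among all constitutive members, 13 had both labelled-knockout tumors below all 3 wild-type tumors, where 7.56% of tested genes did, and 9 of these were 19S genes. Only Psma6, an alpha subunit, had both above, at 83.8 and 85.6 CPM against 78.4, 72.7 and 80.0 CPM. With library totals 9 members had both below, where 7.46% of tested genes did, and Psma6 no longer had both above. Over both tissues Psmc4, Psmd4 and Psmd12 had every labelled-knockout library below every wild-type one, and 2.77% of all tested genes did. With library totals Psmd4 overlapped, with 106.4 CPM in labelled-knockout tumor 2 against 104.6 and 94.1 CPM in wild-type tumors 1 and 2. Psmc4 and Psmd12 did not overlap, and Psmb5, Psmc2 and Psme3 separated as well. Their nearest labelled-knockout and wild-type libraries were at 69.96 and 70.27 CPM for Psmb5, 85.34 and 85.55 CPM for Psmc2, and 47.79 and 48.85 CPM for Psme3. The share of all tested genes for this scaling is not given here.

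Among the base ATPases, Psmc4 showed the clearest difference of any member. It stood at 103.7, 120.7 and 102.1 CPM in wild-type tumors, at 107.9 and 105.3 CPM in wild-type normal livers, at 82.3 and 76.5 CPM in labelled-knockout tumors and at 81.9 CPM in the labelled-knockout normal liver. No library under the knockout label reached the lowest wild-type one, in tumor or in normal liver. The log2 fold change was -0.43 ± 0.12 (SE) over both tissues, with an unadjusted p of 0.00920 and an adjusted p of 0.71 in edgeR, and DESeq2 gave an adjusted p of 0.0485. In tumors alone it was -0.46 ± 0.18 (SE), with an unadjusted p of 0.0381. Psmc3 was at -0.40 ± 0.29 (SE) in tumors, and Psmc5 was the ATPase nearest to 0, at -0.13 ± 0.17 (SE).

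Psmd4 and Psmd12 had the same order on the TMM scale, with smaller steps. Psmd4 gave 110.5, 104.5 and 124.0 CPM in wild-type tumors, 104.7 and 131.2 CPM in wild-type normal livers, and 101.7, 100.1 and 102.1 CPM in the labelled-knockout libraries. Psmd12, a scaffold subunit of the lid, gave 80.5, 92.3 and 73.9 CPM, then 73.2 and 78.6 CPM, and then 68.3, 69.0 and 70.0 CPM. The gaps between the nearest libraries were smaller than the spread within wild type. Psmd12 is shown as an example whose promoter, like that of Psmd4, held 2 of the motifs searched, on chr11:107479278-107479577, plus strand. Its capitals mark a match to TGACNNNGC on the minus strand near the left end and a match to CCGGAAG, a site of ETS family factors, on the minus strand near the start.
Psmd12: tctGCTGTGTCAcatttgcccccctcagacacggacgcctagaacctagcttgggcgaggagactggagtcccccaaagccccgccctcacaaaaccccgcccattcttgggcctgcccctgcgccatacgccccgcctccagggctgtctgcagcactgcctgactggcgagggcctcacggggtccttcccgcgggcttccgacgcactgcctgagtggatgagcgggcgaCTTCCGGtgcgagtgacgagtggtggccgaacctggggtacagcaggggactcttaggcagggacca
CCGGAAG was found in 14 of 38 members with a promoter, or 36.8%, against 9.93% of all genes. Psmd4 was among the 14 and Psmc4 was not.

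Apart from Psma8, at 0.74 ± 0.76 (SE) from few counts, the largest fitted differences between the tumors belonged to lid and base subunits. Psmd8, a lid subunit, gave 155.9, 226.2 and 89.9 CPM in wild-type tumors, 91.1 and 102.5 CPM in labelled-knockout tumors, 92.2 and 99.02 CPM in wild-type normal livers and 93.3 CPM in the labelled-knockout normal liver. Wild-type tumors 1 and 2 were high, and the other 6 libraries lay between 89.9 and 102.5 CPM. Its log2 fold change was -0.70 ± 0.38 (SE) for labelled-knockout against wild-type tumors and 0.72 ± 0.38 (SE) for wild-type tumor against normal liver, comparisons that share the wild-type tumors. Without wild-type tumors 1 and 2 these became 0.082 and -0.068. Psmd1, the large scaffold of the base, gave 150.3, 227.7 and 115.8 CPM in wild-type tumors and 93.1 to 120.0 CPM in the other 5 libraries, with fitted values of -0.61 ± 0.32 and 0.63 ± 0.32 (SE).

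**Figure D4:**
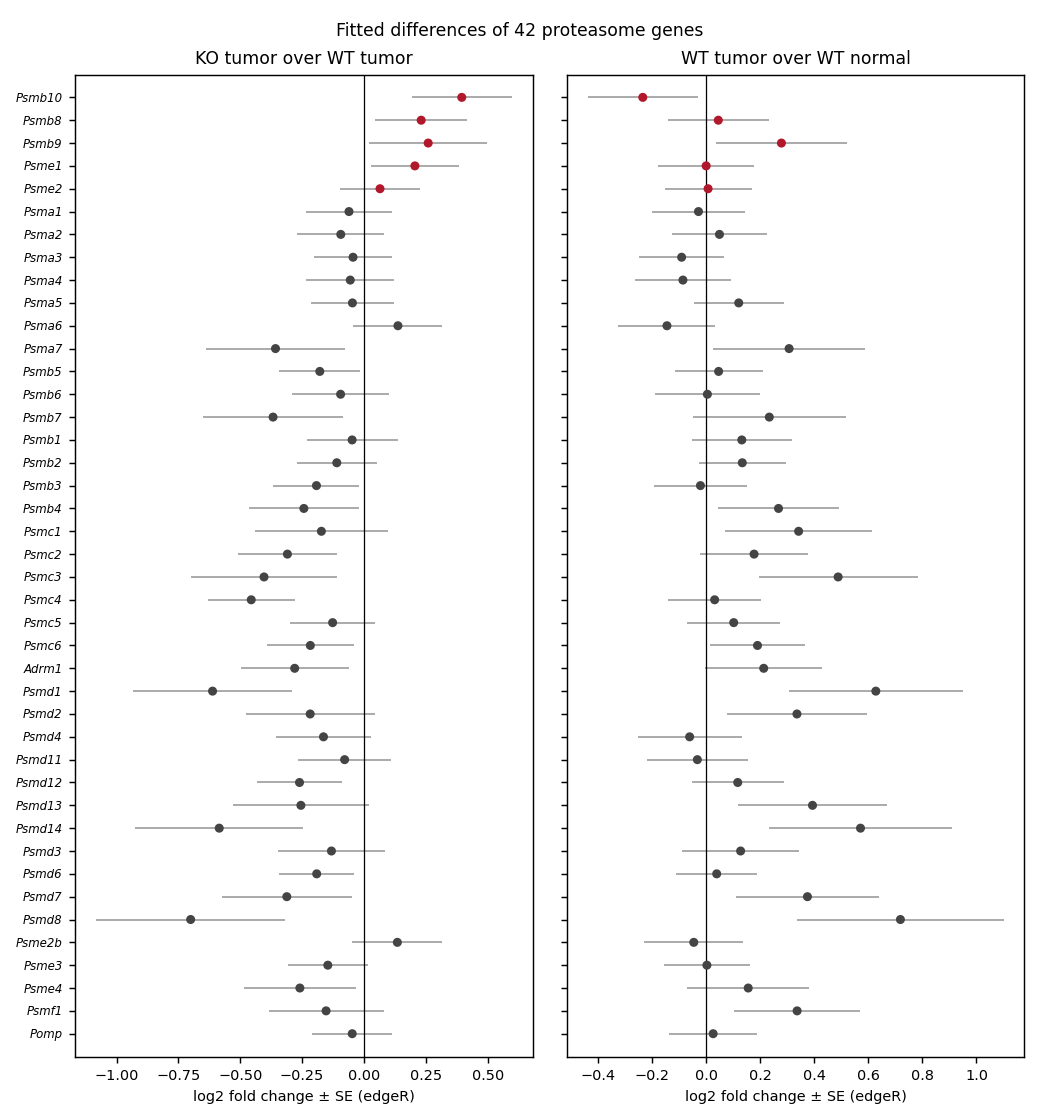
Points are edgeR log2 fold changes and bars their SEs for 42 proteasome genes, with the 5 inducible genes in red. The left panel is labelled-knockout (KO) over wild-type (WT) tumor and the right panel wild-type tumor over wild-type normal liver, which share the 3 wild-type tumors. On the left 35 of 38 constitutive genes lie below 0 (Psma8, not drawn, lies above) and the inducible ones above it.

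Within wild type, 29 of 38 constitutive genes had a log2 fold change above 0 in tumor against normal liver, as did 50.3% of all tested genes, with a median of 0.12 against 0.00. With library totals in place of TMM factors 15 of 38 were above 0 and the median was -0.030, while that of all genes moved to -0.15. Their sign against 0 thus did not hold. A change of scaling shifts all genes by about the same amount, so it cannot test the distance of these genes from the bulk. Without wild-type tumors 1 and 2, 25 of 38 were above 0 with a median of 0.026. Of the 18 19S genes 16 were above 0 with a median of 0.20 (11 of 18 and 0.047 with library totals, 11 of 18 and 0.034 without wild-type tumors 1 and 2), and of the 15 constitutive 20S genes 9 were, with a median of 0.04 (3 of 15 and -0.12 with library totals). Psmc3 was at 0.49 ± 0.29, Psma7 at 0.31 ± 0.28, Psmb4 at 0.27 ± 0.22 and Psmf1 at 0.34 ± 0.23 (SE). The inducible genes had a median of 0.01, or -0.14 with library totals. Only Psmb2 and Psmf1 had all 3 tumors above both normal livers, where 6.51% of tested genes did, and only Psma4 had all 3 below, where 8.81% did. With library totals these were Psmc3 and Psmd1 above, and Psma6 and Psme3 below. No member was thus in both sets, and the shares of all tested genes for that scaling are not given here.

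The single tumors did not share this direction. Against the normal liver of the same number, wild-type tumor 2 had 32 of 38 constitutive genes higher, with a median log2 ratio of 0.36, and Psmc3, Psmd1, Psmd8 and Psmd14 passed a doubling. Wild-type tumor 3 had 6 of 38 higher with a median of -0.09, and labelled-knockout tumor 3 had 15 of 38 higher with a median of -0.03. All genes had medians of -0.00, -0.01 and 0.02 in these library pairs. Wild-type tumor 2 held the highest value of the 8 libraries in 27 of 38 constitutive genes, or 71.1%, against 30.4% of all tested genes. In 11 genes (28.9%, against 13.2% of all) wild-type tumor 1 came second to it. These values depend on the scaling. With library totals wild-type tumor 2 had 17 of 38 higher than its normal liver with a median of -0.03, against -0.35 over all genes, and wild-type tumor 3 had 24 of 38 with a median of 0.02, against 0.08. Wild-type tumor 2 then held the highest value in 14 of 38, or 36.8%, against 21.7% of all genes.

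The excess in wild-type tumor 2 was uneven across the particle. Relative to the median of the 6 libraries other than wild-type tumors 1 and 2, it was 2.44-fold for Psmd8, 2.20-fold for the deubiquitinase Psmd14, 2.05-fold for Psmd1 and 1.75-fold for the ATPase Psmc3. In the core, Psma7 stood at 1.71-fold and Psmb7 at 1.66-fold. Other members of the same rings were nearer to the other libraries, with Psmb4 at 1.43-fold, Psma5 at 1.17-fold, Psma1 at 1.01-fold, Psma4 at 1.02-fold, Psma6 at 0.86-fold, Psmb6 at 1.04-fold and Psmb3 at 1.05-fold. In the cap, Psmd4 was at 1.01-fold and Psmd11 at 0.99-fold, and Pomp was at 0.98-fold. The inducible members were all below 1, from 0.67-fold for Psmb10 to 0.99-fold for Psme2. With library totals the ratios of these genes were lower, from 2.12-fold for Psmd8 to 0.60-fold for Psmb10.

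**Figure D5:**
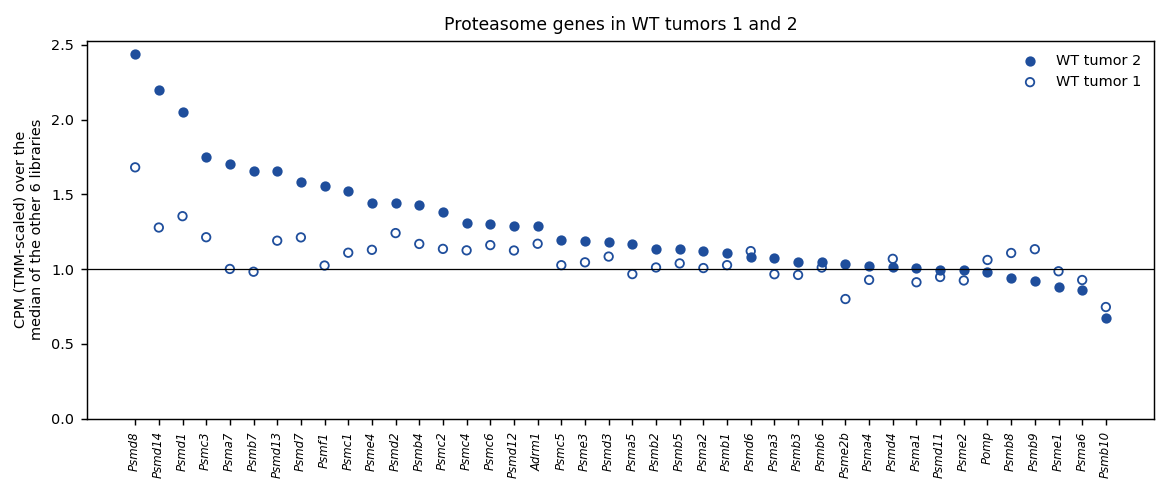
For each of 42 proteasome genes, the TMM-scaled CPM of wild-type tumor 2 (filled) and tumor 1 (open) divided by the median of the other 6 libraries. Filled points run from 2.44 for Psmd8 to 0.67 for Psmb10, and the line marks 1.

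Psma7 gave 105.0, 178.9 and 107.0 CPM in wild-type tumors, 102.9 and 107.9 CPM in wild-type normal livers, 102.2 and 101.2 CPM in labelled-knockout tumors and 109.1 CPM in the labelled-knockout normal liver. Apart from wild-type tumor 2 the range was 101.2 to 109.1 CPM, among the narrowest of the strong members on the TMM scale. With library totals that range was 96.7 to 121.8 CPM. On the TMM scale Pomp was steady in all 8 libraries, with a ratio of highest to lowest of 1.11. So were Psma4 at 1.15 and Psma3 at 1.16. This steadiness did not hold with library totals. Pomp then ran from 83.3 to 116.3 CPM, Psma4 from 119.4 to 169.1 CPM and Psma3 from 79.3 to 113.9 CPM. At the other end on the TMM scale were Psmd8 with a ratio of 2.52, Psmd1 at 2.45 and Psmd14 at 2.27. Psme4, the nuclear cap PA200, was at -0.26 ± 0.23 (SE) in labelled-knockout against wild-type tumors, and Psme2b at 0.13 ± 0.18 (SE).

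Genes around the proteasome were set beside it. Of 14 ubiquitin and shuttle genes, 13 were below 0 in labelled-knockout against wild-type tumors with a median of -0.15, against 50.4% of all tested genes. In wild-type tumor against normal liver 11 were above 0 with a median of 0.21, against 50.3%. Wild-type tumor 2 was highest in 7 of the 14, against 30.4% of all genes. Wild-type normal liver 2 was lowest in 9, against 2130 of all 14726 genes. Fold changes of these lists with library totals are not given here. Of 8 assembly chaperones, 4 were below 0 in labelled-knockout against wild-type tumors, with a median of -0.01. Nfe2l1 encodes NRF1, the factor that raises proteasome genes when the proteasome is inhibited. It measured 124, 186 and 144 CPM in wild-type tumors, 93.6 and 162 CPM in wild-type normal livers, and 149, 126 and 141 CPM in the labelled-knockout libraries, so its highest value was also in wild-type tumor 2 and its lowest in wild-type normal liver 2. Nfe2l2, its relative in the oxidative stress response, peaked in the same tumor at 142 CPM against 88.5 to 103 CPM in the other 7 libraries.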

How the data were processed

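RNA was sequenced from 8 liver libraries made with a stranded mRNA kit, from samples with an RNA integrity number of at least 7, per the labels. The authors deposited raw counts per gene and FPKM values whose formula is not given in the sources used here. Their 4 deposited comparison tables give log2 ratios and p-values. Bowtie 0.12.2 and the builds mm8 and mm9 are named, without a role, per the submitters' processing notes. Another 16 columns of per-library values were not used, 2 of which match no sample.

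The tests used edgeR 4.0.16 under R 4.3.3 (TMM, robust quasi-likelihood fit, minimum count 10 in the expression filter, common biological coefficient of variation 0.440). A model of 4 group means gave 5 comparisons and a model with genotype plus tissue gave another 2. The group of 1 library was assumed to vary like the others. Fits were tested on simulated data. Alternatives were DESeq2 1.42.0, other scaling, no filter, limma 3.58.1 on log2(FPKM + 1 or 0.1), replicate blocks and left-out libraries. Levels between genes and subunit ratios used the deposited FPKM. Pairs of libraries left out together were chosen after seeing the data.

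The members and lists were chosen with earlier results of these data known. The naming rule took the inducible genes, their partners, each role's extremes for the tumor comparisons and any member with an unadjusted p under 0.05. Other members were named after their values were seen.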

Additional observations from a re-analysis of the deposited data

Results flagged for a closer look

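Among the 5 wild-type libraries, single values stood far from the rest, by Dixon's criterion, in 5 of the 45 members. Chance alone marks about 1 in 20 groups, and the share of all tested genes marked in these libraries is not given here. Wild-type tumor 2 held the highest of the 8 values in 30.4% of all tested genes, so high values there are not particular to these members. In wild-type tumor 2, Psma7 reached 178.9 CPM (next library 107.9), Psmd14 82.5 CPM (next 47.9) and Psmf1 44.6 CPM (next 29.4). Psmb3 was lowest in wild-type tumor 1, at 87.1 CPM (next 92.8). Ifng was highest in wild-type normal liver 2, at 0.496 CPM (next 0.181), which rests on 7 counts. Psma7 also had opposite directions in the tissues: both labelled-knockout tumors lay below all wild-type tumors, and the labelled-knockout normal liver above both wild-type ones. With library totals this did not hold, and the labelled-knockout normal liver lay below both. The fitted difference of the effects was -0.41 ± 0.47 (SE), with an edgeR p of 0.41 and an adjusted p of 0.9999.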

How the results depend on the processing

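All counts of called genes were 0 in edgeR, but DESeq2 called 4 genes for labelled-knockout against wild-type tumors, 13 for wild-type tumor against normal liver, 1 for labelled-knockout against wild-type normal liver, 45 for labelled knockout against wild type and 5 for tumor against normal liver. Without labelled-knockout tumor 2, edgeR called 2 genes for labelled knockout against wild type (0 to 2 over the left-out libraries). Median log2 fold changes moved as follows. For labelled-knockout against wild-type tumors, the constitutive median was -0.060 and the inducible one 0.13 without wild-type tumors 1 and 2, and leaving out 1 library gave 0.10 to 0.33 for the inducible genes. For labelled knockout against wild type the inducible median was 0.21 without those tumors and 0.21 to 0.38 with 1 library left out. For wild-type tumor against normal liver, library totals, FPKM + 1 and FPKM + 0.1 gave -0.030, -0.031 and -0.032 for constitutive and -0.14, -0.14 and -0.15 for inducible genes, and leaving out 1 library gave 0.025 to 0.24 for the constitutive ones. Signs turned for Psme2 without labelled-knockout tumor 2 and normal liver 3 (-0.0082 in tumors and -0.0082 over both tissues), for Psmd8 (0.082 and -0.068) and Psmb10 (0.028, wild-type tumor against normal liver) without wild-type tumors 1 and 2, and for Psmb6 (0.0012, over both tissues) without wild-type normal liver 3. Psmc4 passed in DESeq2 at -0.43. Beyond fewer libraries, the cause of these moves was not tested.

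Nothing in the labels says that a number marks a shared animal. The deviations of same-numbered tumor and normal liver correlated at 0.16 and 0.20 in wild type, and the labelled-knockout normal liver, the only one of its group, has no deviation, so fewer than 3 pairs could be checked. Between the tumors of both genotypes they correlated at -0.11 and -0.07. In a group of 2 libraries, as in wild-type normal liver and the labelled-knockout tumors, the 2 deviations mirror each other. These correlations therefore cannot decide whether the numbers mark pairs. The numbers were not taken as pairs because the labels do not state it. Correlations across genes gave a mixed hint. Wild-type tumor 3 and normal liver 3 had the highest of all library pairs, 0.9905, followed by labelled-knockout tumor 3 and normal liver 3, 0.9832. Wild-type tumor 2 and normal liver 2 had 0.8682. That lay below wild-type tumor 2 with wild-type tumor 1, 0.918, and with labelled-knockout tumor 3, 0.8833. With the replicate number as a block, 0 genes were called, and the constitutive and inducible medians for labelled-knockout against wild-type tumors were -0.18 and 0.31. The number of libraries, 1 to 3 per group, limits the precision of every value here.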
